A study of Mus musculus with 4 samples.

Results

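The 10 gene loci described here, Etnk1, Elovl6, Bex6, Mrpl42, Ncoa3, Nrros, Nxpe3, Padi4, Spry1 and Gab1, are 10 of 21911 protein-coding genes and were selected because many accessible regions around them had a peak in both CTCF-K20R libraries and in neither WT library. Such regions are called K20R-restricted, the reverse are called WT-restricted, and regions with a peak in every library are called common. All peaks reaching within 50 kb of the 10 transcription start sites (TSSs) were taken and peaks sharing at least 1 bp were merged, which gave 107 of the 80380 regions of the whole series and 30 of its 2491 K20R-restricted regions. The measured values thus chose the loci, and the difference between genotypes at them is described without any test.

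The data are from ATAC-seq, an assay whose transposase inserts sequencing adapters into accessible DNA. Embryoid bodies were assayed on day 4 of differentiation, and these are aggregates that mouse embryonic stem cells (line E14Tg2A) form when leukaemia inhibitory factor is withdrawn in hanging drops. WT cells carry unaltered CTCF, and in CTCF-K20R cells lysine 20 of CTCF was replaced by arginine with CRISPR/Cas9, both having been kept before on mouse embryo fibroblasts with inhibitor medium. There were 2 libraries of each genotype, which the study calls biological replicates, and how many edited clones they stand for is not given in the sources used here.

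CTCF is a zinc finger protein that holds chromatin loops in place together with cohesin, and its sites are usually accessible. Many other accessible regions away from promoters are enhancers or candidate enhancers, which open where transcription factors bind, and they change more between cell states than promoters do. The genes at these loci have unlike roles. Etnk1 starts phosphatidylethanolamine synthesis, Elovl6 lengthens fatty acids, Mrpl42 belongs to the mitochondrial ribosome, Ncoa3 is a coactivator of nuclear receptors, Nrros binds latent TGF-β in myeloid cells, Padi4 converts arginine of histones to citrulline, Spry1 dampens receptor tyrosine kinase signalling, and Gab1 is a docking protein of the same receptors. No role is given here for Bex6 and Nxpe3.

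Sequences of 7 regions are shown, since they are the strongest K20R-restricted region of all (Gab1), the K20R-restricted regions with a CTCF or ESRRB match (Bex6, Etnk1 and both of Ncoa3), and the common regions with the largest decrease (Spry1) and increase (Mrpl42) of the percentile in K20R. Each is the 201 bases around the strongest summit, from the + strand of GRCm38.p6 (mm10), and distances are from the TSS in the direction of transcription, negative when upstream. Capitals mark every match, on either strand, to the consensus of CTCF (by name), to SOX ACAANG, ESRRB TCAAGGTCA, AP-1 TGANTCA, ZIC CAGCAGG or the E-box CANCTG. In the Bex6 region the ZIC match lies inside the CTCF match.
Gab1 at -38.2 kb (chr8:80918644-80918844): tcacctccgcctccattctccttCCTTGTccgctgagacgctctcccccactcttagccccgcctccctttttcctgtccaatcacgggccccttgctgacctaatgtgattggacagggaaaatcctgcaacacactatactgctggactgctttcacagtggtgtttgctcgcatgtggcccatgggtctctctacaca
Bex6 at 23.1 kb (chr16:32202834-32203034): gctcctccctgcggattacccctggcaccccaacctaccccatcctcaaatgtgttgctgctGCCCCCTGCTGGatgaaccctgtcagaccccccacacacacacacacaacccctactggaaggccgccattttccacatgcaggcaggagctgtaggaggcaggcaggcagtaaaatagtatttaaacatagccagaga
Etnk1 at 17.7 kb (chr6:143184838-143185038): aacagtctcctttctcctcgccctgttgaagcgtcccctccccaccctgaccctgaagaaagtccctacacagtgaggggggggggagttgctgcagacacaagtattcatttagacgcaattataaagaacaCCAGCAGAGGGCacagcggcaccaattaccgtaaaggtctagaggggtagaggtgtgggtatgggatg
Ncoa3 at -11.2 kb (chr2:165981348-165981548): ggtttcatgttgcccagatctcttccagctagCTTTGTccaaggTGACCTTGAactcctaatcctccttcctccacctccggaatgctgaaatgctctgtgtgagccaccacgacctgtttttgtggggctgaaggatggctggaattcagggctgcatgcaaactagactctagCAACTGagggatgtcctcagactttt
Ncoa3 at 16.6 kb (chr2:166009112-166009312): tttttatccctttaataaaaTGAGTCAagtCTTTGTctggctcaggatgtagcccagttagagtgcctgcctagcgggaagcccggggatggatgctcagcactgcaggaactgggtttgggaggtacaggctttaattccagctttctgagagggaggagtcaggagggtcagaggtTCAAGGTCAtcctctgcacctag
Spry1 at 14.2 kb (chr3:37654094-37654294): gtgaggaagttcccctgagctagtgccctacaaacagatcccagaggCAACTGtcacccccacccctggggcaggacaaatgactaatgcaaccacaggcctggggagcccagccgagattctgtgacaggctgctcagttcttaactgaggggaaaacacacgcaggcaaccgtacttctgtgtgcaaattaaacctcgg
Mrpl42 at 40.5 kb (chr10:95461313-95461513): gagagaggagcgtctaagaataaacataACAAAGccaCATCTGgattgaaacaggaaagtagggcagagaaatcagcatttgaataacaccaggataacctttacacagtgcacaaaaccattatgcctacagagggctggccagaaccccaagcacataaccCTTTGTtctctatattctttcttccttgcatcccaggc

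Near the 10 genes, 28.0% of regions were K20R-restricted, against 3.1% of all regions. WT-restricted regions were 2 of 107 (1.87%), against 10.4% of all regions. Both shares follow from how the loci were chosen. The WT-restricted count rested on all 4 libraries. It was 7 when either WT replicate was left out, 6 without K20R replicate 1 and 5 without K20R replicate 2. Leaving out a library loosens the definition, so that this count could not fall. The WT-restricted shares were then 4.90% to 6.86%, against 12.6% to 20.7% of all regions in the same settings. The number of regions with a peak was 55 and 58 in the WT libraries and 85 and 83 in the K20R libraries, whereas over the whole series the WT lists held 58241 and 65355 regions and the K20R lists 50328 and 55099. The order of the genotypes at these loci was thus the opposite of that of the series. It too follows from the choice, since the K20R counts include the 30 K20R-restricted regions. Of the remaining regions, 39 were common and 36 had mixed patterns. A peak in 1 K20R library alone was found in 12 of these and a peak in 1 WT library alone in 10. In bulk samples, fewer cells with an open region and less opening per cell cannot be told apart.

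**Figure D1:**
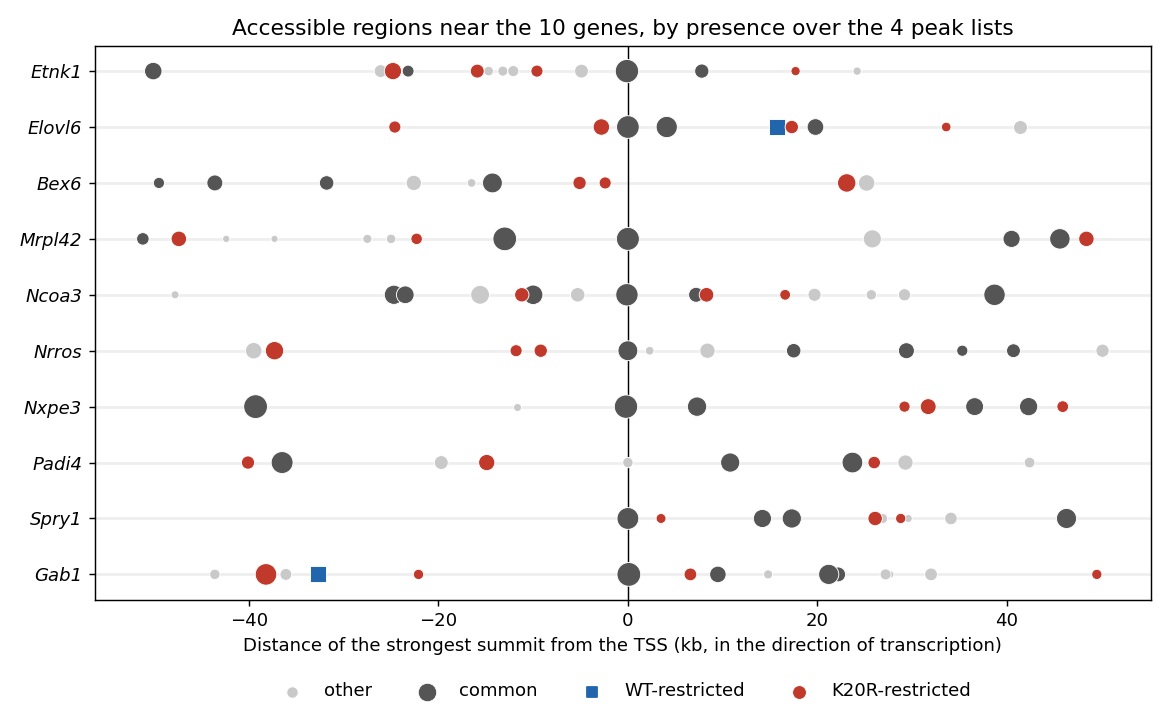
Regions near the 10 genes, with the distance of the strongest summit from the TSS in kb on the x axis and 1 gene per line; colour gives the presence pattern and the area of a symbol grows with the mean percentile of its peaks. The K20R-restricted regions lie on both sides of the TSSs and none is within 1 kb of them, while common regions mark 8 of the 10 TSSs.

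The K20R-restricted regions were few at each gene. Etnk1, Elovl6 and Gab1 had 4 each and the other 7 genes had 3 each, among 9 to 15 regions per gene. Nrros and Bex6, whose TSSs are 14229 bp apart, share the same 3, so that 33 entries stand for 30 regions. Of all protein-coding genes, 18617 had no K20R-restricted region within 50 kb, 2903 had 1, 352 had 2, 36 had 3 and 3 had 4. The median number of regions of any pattern within 50 kb was 11 for the 10 genes and 6 for all protein-coding genes. When WT-restricted regions were subtracted, Etnk1 alone had a balance of 4, while 12 genes had 3 and 191 genes had 2. The 12 include the other 9 genes described here and 3 neighbours on chromosome 8, B3gnt9, Tradd and Fbxl8, which lay inside the same limit without being selected. Just outside it, Bcl2l10, Cerk, Ell and Fkbp8 each had 3 K20R-restricted regions and 1 WT-restricted region.

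Between 50 and 100 kb from the 10 TSSs there were 71 further regions, of which 3 (4.23%) were K20R-restricted and 2 (2.82%) WT-restricted, where the shares of all regions are 3.1% and 10.4%. Since the loci were chosen on the nearer regions, a higher share within 50 kb than beyond was given by the choice. Within 1 Mb the K20R-restricted share ranged from 3.50% around Padi4 to 11.1% around Gab1. The 1 Mb counts include the regions by which the loci were chosen.

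None of the 30 K20R-restricted regions lay at a promoter, here within 1 kb of the TSS of any protein-coding transcript. Elsewhere 5.97% of the 2461 K20R-restricted regions did. As 1 region is 3.33% of the 30, this difference is small. Introns held 17 (56.7%, elsewhere 45.6%), exons 4 (13.3%, elsewhere 9.51%) and intergenic sequence 9 (30.0%, elsewhere 38.9%). The closest to a TSS of the 10 genes was 2389 bp away and the median distance was 22715 bp. Inside the body of the gene itself there were 12, at 7 of the genes. The median gap to the nearest common region was 7152 bp near the 10 genes and 9854 bp elsewhere. In width (median 562.5 bp, elsewhere 574) and GC content (50.7%, elsewhere 51.7%) the set was close to the K20R-restricted regions of the rest of the genome.

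These regions were weak in the lists that held them. The strength of a peak was taken as its percentile by −log10 p within its own list, where 100 is the strongest. The mean of both K20R libraries had a median of 23.0 over the 30 regions, with a range of 7.0 to 79.4, and 21.9 over the K20R-restricted regions elsewhere. In 27 regions both percentiles were under 50, in 1 both were over 50, and in 10 at least 1 was under 10. Only 3 reached a −log10 q of 10 in each K20R library (10.0%, elsewhere 7.15%). The lowest −log10 q in a K20R library was 0.70 over the 30 regions and 0.34 elsewhere, so that the lists hold peaks of little significance.

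**Figure D2:**
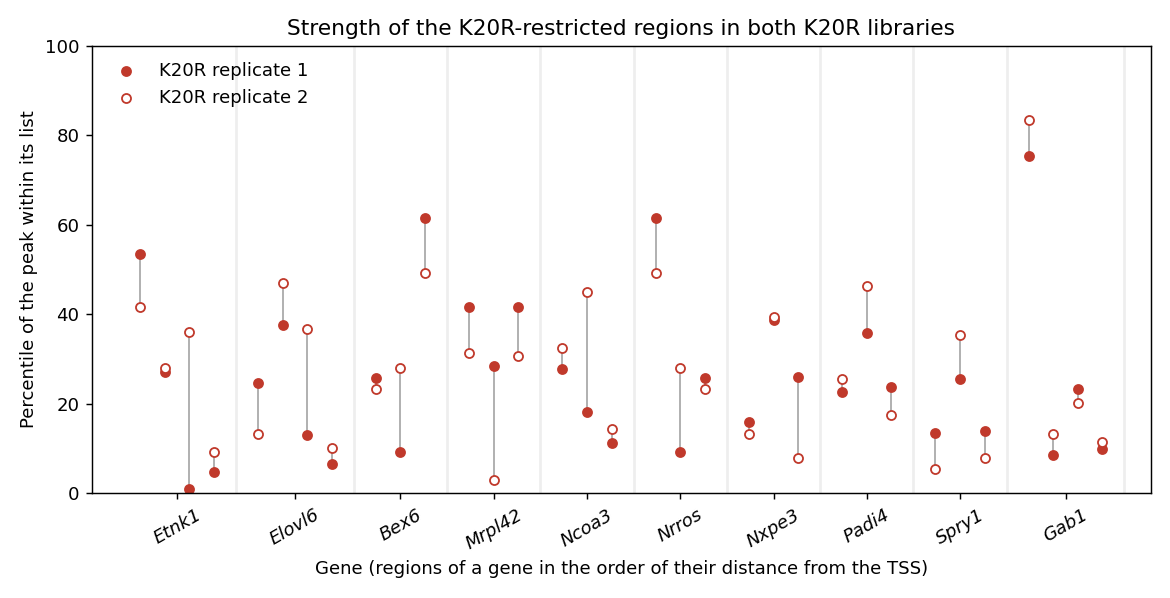
Percentile of each K20R-restricted region in K20R replicate 1 (filled) and replicate 2 (open), grouped by gene and ordered by distance from the TSS, with a line joining the libraries. Most points lie under 50, and the region of Gab1 at -38.2 kb, at 75.4 and 83.4, is the strongest.

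The deposited lists do not hold every peak that was called, since the running numbers of the peaks have gaps. Between the neighbours of a region on the list, a missing number means that a called peak may have been removed there, and no missing number means that none was called. In both WT lists no number was missing at 9 of the 30 regions (30.0%, elsewhere 23.7%). These are 1 region each of Etnk1 (-9.6 kb), Elovl6 (17.3 kb), Mrpl42 (-22.3 kb) and Padi4 (26.0 kb), Ncoa3 at 8.3 and 16.6 kb, and all 3 of Nxpe3. At 7 regions a number was missing in 1 WT list alone, and at 14 in both. In the lists with a missing number, whether a called peak was removed at the region is unknown. Regions between the same neighbours on a list share the same missing numbers, so that these counts are not counts of removed peaks.

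Gab1 (chromosome 8, 80764438 to 80880519, minus strand) had the strongest K20R-restricted region. It lies in intergenic sequence at -38.2 kb (chr8:80918154-80919402), at percentiles 75.4 and 83.4, with summit pileups of 48 and 92 reads and folds of 8.37 and 12.6 over local background in the K20R libraries. Numbers were missing there in both WT lists. Its sequence, shown first above, holds a SOX match and none of the other motifs searched. The other 3 were at 49.5 kb (10.0 and 11.5), 6.6 kb (23.3 and 20.1) and -22.1 kb (8.58 and 13.2), the former pair in introns of Gab1. Close to the strongest lay a WT-restricted region at -32.7 kb, with percentiles 38.4 and 42.5 in WT, so that this stretch held regions of both kinds.

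The Gab1 promoter was at 98.1 and 97.5 in WT against 99.6 and 99.6 in K20R. Of the 8 genes with a promoter peak in every library, Gab1 and Mrpl42 were higher in K20R without overlap and none was lower. Among all common regions, 18.6% were higher in this way and 34.8% lower. The level around Gab1 was higher in K20R as well. Common regions within 1 Mb of its TSS (n = 17) had a median log2 summit pileup, relative to the autosomal median of each library, of -0.53 and -0.48 in WT against 0.04 and 0.07 in K20R, a difference of 0.56. For the other 9 genes this difference ranged from -0.28 around Elovl6 to 0.16 around Mrpl42. Over all common regions of chromosome 8 it was 0.30, and over the other autosomes it ranged from -0.26 on chromosome 14 to 0.08 on chromosome 10. Chromosome 8 also had the highest K20R-restricted share of the autosomes, with 4.54%, and it holds 10 of the 29 genes that had 3 or more K20R-restricted regions and are not described here. The part of this shift in the count at Gab1 was not tested. Without Gab1, a setting chosen after seeing the data, 26 of 92 regions (28.3%) near the remaining 9 genes were K20R-restricted and 1 was WT-restricted.

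**Figure D3:**
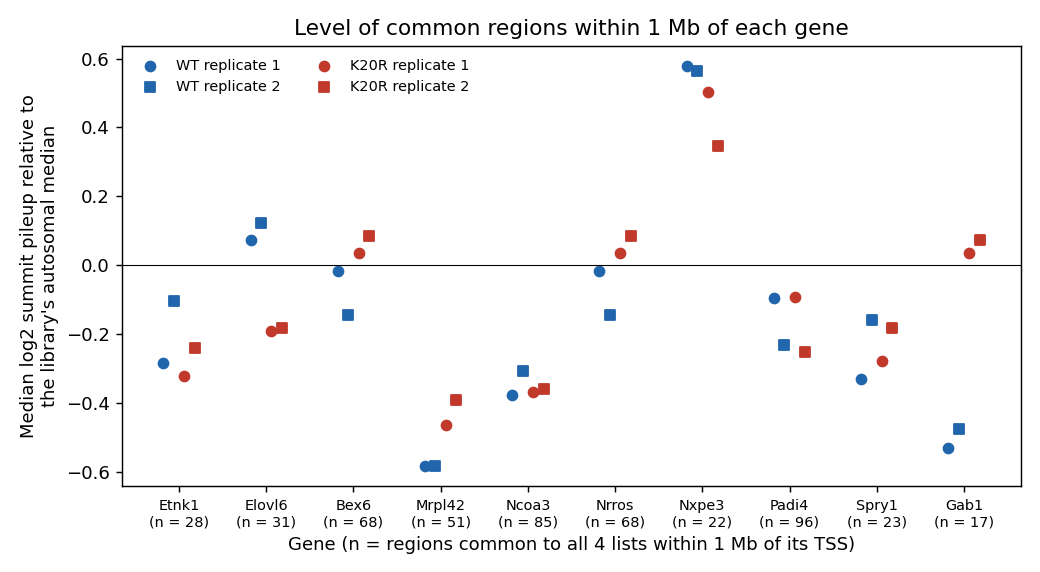
Median log2 summit pileup of the regions common to all 4 lists within 1 Mb of each TSS, relative to the autosomal median of the library, for WT (blue) and K20R (red) libraries, with the number of regions under each gene. Around Gab1 the K20R libraries, at 0.04 and 0.07, lie well above the WT libraries, at -0.53 and -0.48.

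Spry1 (chromosome 3, 37639947 to 37644598), the feedback inhibitor of receptor tyrosine kinase signalling, had 3 weak K20R-restricted regions on its downstream side. That in its own exon at 3.5 kb was at percentiles 13.6 and 5.44. Intergenic regions followed at 26.1 kb (25.6 and 35.5) and 28.8 kb (14.0 and 7.97). A number was missing at all 3 in each WT list, and it was the same number for those at 26.1 and 28.8 kb. The largest decrease of any common region near the 10 genes was also here, at 14.2 kb (chr3:37653991-37654714). Its percentiles were 88.6 and 85.5 in WT against 25.6 and 15.3 in K20R, with summit pileups of 73 and 102 reads in WT against 18 and 20 in K20R. The Spry1 promoter had percentiles of 80.0 and 82.0 in WT against 83.9 and 81.0 in K20R, which overlap. The K20R-restricted count at Spry1 thus stands beside a strong region that was weaker in K20R.

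Etnk1 (chromosome 6, 143167221 to 143232307), the ethanolamine kinase gene, had the highest balance. Its strongest K20R-restricted region, at -24.8 kb in an intron of the noncoding gene Gm31108, was at percentiles 53.4 and 41.7. Another intronic one of Gm31108 at -15.9 kb was at 27.1 and 28.1. The intergenic one at -9.6 kb was near the bottom of the list of K20R replicate 1, at 1.05, and at 36.0 in replicate 2. Its −log10 q was only 0.70 in K20R replicate 1, against 10.4 in replicate 2. The last, in an Etnk1 intron at 17.7 kb, was at 4.85 and 9.16 and holds a CTCF consensus. The −log10 q of this region was 1.26 in K20R replicate 1 and 2.85 in replicate 2. The count of 4 at Etnk1 includes both of these weak regions. Around the same TSS a pair of common regions was lower in K20R. At -50.1 kb the percentiles were 74.7 and 73.6 in WT against 17.3 and 31.2 in K20R, and at 7.8 kb they were 36.3 and 50.1 against 19.2 and 12.1. Another, at -23.2 kb, was higher in K20R, at 4.71 and 15.6 in WT against 26.7 and 23.7 in K20R. The promoter was at 96.1 and 94.6 in WT against 92.0 and 96.0 in K20R.

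At Elovl6 (chromosome 3, 129532355 to 129638495) the region at -2.8 kb, in an intron of the noncoding gene Gm35986, was the strongest K20R-restricted one (37.6 and 47.1). Those at -24.6 kb (24.7 and 13.2), 17.3 kb (13.0 and 36.8) and 33.6 kb (6.56 and 10.1) were weaker, the latter pair in Elovl6 introns. A WT-restricted region lay in the same intronic stretch at 15.7 kb, at 29.7 and 38.6 in WT. The fatty acid elongase promoter was at 86.8 and 93.8 in WT against 86.2 and 89.4 in K20R, so that the libraries overlapped.

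Nrros (chromosome 16, 32142785 to 32165594, minus strand) and Bex6 (32179823 to 32186972) face the same 3 K20R-restricted regions, all in intergenic sequence. From the Bex6 TSS these lie at -5.1 kb (25.7 and 23.3), -2.4 kb (9.15 and 28.0) and 23.1 kb (61.6 and 49.2). The last, the second strongest of the whole set, is the one with a CTCF consensus shown above. All 3 lie between the same neighbouring peaks of WT replicate 1, where 1 number was missing, so that it is the same number for each. In WT replicate 2 none was missing. Bex6 had no promoter peak in any library, and that of Nrros was at 62.3 and 68.0 in WT against 59.9 and 73.6 in K20R. Both genes are counted once each in the selection, yet they are a single locus.

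The 3 K20R-restricted regions near Mrpl42 (chromosome 10, 95480805 to 95501940, minus strand) lay outside the gene. They were at 48.4 kb in an intron of Gm47599 (41.7 and 30.7), at -22.3 kb in an intron of the neighbour Ube2n (28.5 and 3.00) and at -47.4 kb in an exon of Nudt4 (41.7 and 31.5). The largest increase of a common region was also seen here, in intergenic sequence at 40.5 kb (chr10:95461055-95461585). Its percentiles were 24.5 and 8.95 in WT against 75.6 and 79.1 in K20R, and its summit pileups 14 and 15 reads in WT against 55 and 91 in K20R. The promoter of this mitochondrial ribosome gene was at 90.6 and 90.5 in WT against 92.7 and 91.9 in K20R. At both the promoter and the region at 40.5 kb, both K20R percentiles were above both WT percentiles, as in 18.6% of all common regions.

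Ncoa3 (chromosome 2, 165992636 to 166073242) had one K20R-restricted region upstream, at -11.2 kb in an intron of the noncoding genes Platr29 and Gm11464 (27.8 and 32.5), and others in its own introns at 8.3 kb (18.2 and 44.9) and 16.6 kb (11.2 and 14.4). The outer ones each hold the ESRRB consensus, as capitals in the sequences show. A pair of strong common regions farther upstream was lower in K20R. At -24.7 kb the percentiles were 74.7 and 76.2 in WT against 43.0 and 51.7 in K20R, and at -23.5 kb they were 75.3 and 71.2 against 14.8 and 41.9. Nearer to the gene at -10.0 kb, a common region was slightly higher in K20R, with 60.3 and 61.8 in WT against 66.2 and 64.7. The coactivator gene's promoter overlapped between genotypes, at 84.2 and 87.9 in WT against 87.1 and 86.2 in K20R.

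Nxpe3 (chromosome 16, 55839953 to 55895285) and Padi4 (chromosome 4, 140745865 to 140774236), both on the minus strand, had their K20R-restricted regions within gene bodies. In Nxpe3 these lay at 29.2 kb in an exon (15.8 and 13.2), and in introns at 31.7 kb (38.7 and 39.5) and 45.9 kb (26.0 and 7.98). The Nxpe3 promoter was at 94.0 and 95.6 in WT against 92.6 and 98.1 in K20R. Near Padi4, an intron of the gene held one at 26.0 kb (23.8 and 17.6), while an intron of Padi3 at -14.9 kb (35.8 and 46.3) and an exon of Padi1 at -40.1 kb (22.7 and 25.6) held the others. The Padi genes encode related enzymes and form a cluster, so that these regions are near several of them. Padi4 itself had a promoter peak in K20R replicate 2 alone, at 11.2.

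Common regions near the 10 genes moved in both directions. Both K20R percentiles were below both WT percentiles in 17 of 39 regions and above them in 12, where the shares of all common regions are 34.8% and 18.6%. K20R lists are shorter, which shifts percentiles, and when common regions were ranked among themselves 16 were below and 15 above, with 25.5% and 29.2% of all common regions. By the log2 pileup relative to the library's median 12 were below and 18 above (23.5% and 35.5% of all common regions), or 12 and 15 without the regions of Gab1. The split between lower and higher regions near these genes therefore shifted with the measure, as it did over all common regions. A decrease of 20 points or more without overlap was seen in 5 regions, those of Etnk1, Ncoa3 and Spry1 named above, against 9.94% of all common regions. An increase of 20 points or more without overlap was seen in 3, against 3.97%, namely that of Mrpl42, an intronic region of Gab1 at 21.2 kb (52.4 and 63.3 in WT, 81.2 and 76.3 in K20R), and a region at 40.7 kb from Nrros (4.74 and 24.1 in WT, 35.7 and 44.6 in K20R).

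**Figure D4:**
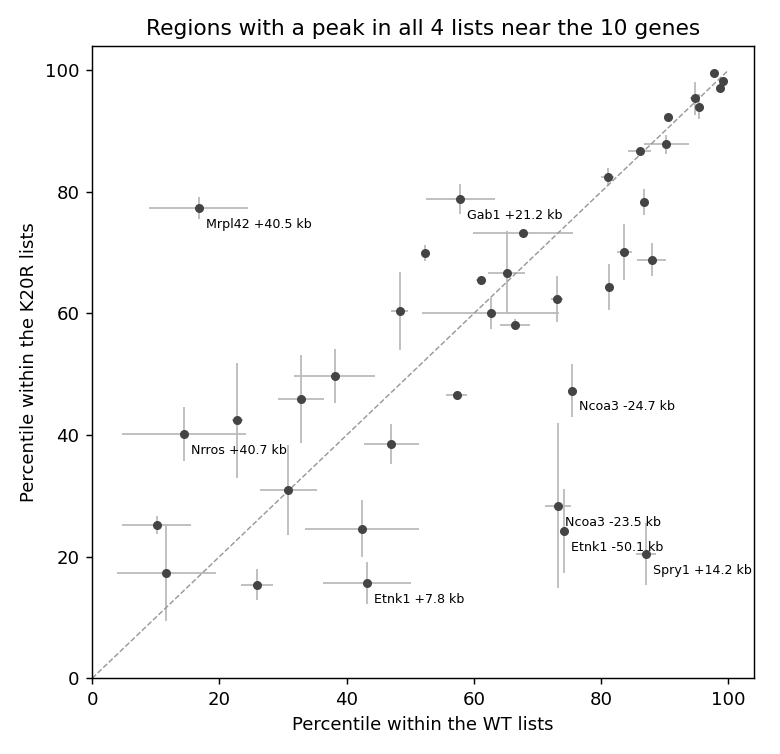
Mean percentile of the 39 common regions near the 10 genes in the WT lists (x axis) and the K20R lists (y axis), with bars that span both libraries of a genotype and a dashed line of equality. Regions whose mean differed by 20 points or more are named by gene and distance from the TSS, and promoters gather at the upper right.

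Motifs were compared within 201 bp around the strongest summit. Of the 30 K20R-restricted regions, 14 held SOX ACAANG (46.7%, elsewhere 38.8% of K20R-restricted regions, and 34.1% of all regions). The E-box CANCTG was found in 10 (33.3%, elsewhere 49.0%, all regions 47.7%) and ZIC CAGCAGG in 4 (13.3%, elsewhere 12.6%, all regions 14.4%). The ESRRB consensus TCAAGGTCA, bound by an orphan nuclear receptor of pluripotent cells, was found in 2 (6.67%, elsewhere 1.14%, all regions 0.374%), and both are at Ncoa3. Bases marked as repeats in the genome sequence made up 28.9% and 25.9% of their windows. The median was 12.4% over the 30 regions, 10.9% elsewhere and 2.49% over all regions. Whether the ESRRB matches lie in repeats was not tested. The CTCF consensus was also found in 2 (6.67%, elsewhere 3.98%, all regions 5.97%), and with 1 mismatch allowed in 5 (16.7%, elsewhere 14.7%, all regions 19.6%). The AP-1 consensus TGANTCA, that of TEAD (ACATTCC) and that of GATA factors (AGATAA) were in 2 each, against 7.07%, 3.70% and 7.81% of all regions. KLF CCACACCC and TCF-LEF CTTTGAT were in 1 each, against 2.74% and 2.68%. The T-box consensus TCACACCT and the POU octamer ATGCAAAT were in none, against 1.25% and 1.83%. With 30 regions, 1 region is 3.33% of the set, and no share was tested.

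Of all protein-coding genes, 15% had at least 1 K20R-restricted region within 50 kb and 0.178% had 3 or more. Of 25 paralogues of the 10 genes found in the annotation (such as Etnk2, Elovl5, Ncoa1, Padi3, Spry2 and Gab2), 5 had at least 1 and none had 3 or more. Around them, 5 of 136 regions (3.68%) were K20R-restricted and 7 (5.15%) WT-restricted, against 3.1% and 10.4% of all regions. The 5 include all 3 K20R-restricted regions of Padi4, which lie near Padi1, Padi3 and Padi6. Those 3 are among the regions by which the loci were chosen. Of 26 genes of receptor tyrosine kinase signalling, the pathway of Spry1 and Gab1, 8 had at least 1 and none had 3 or more, and 8 of 221 regions (3.62%) were K20R-restricted and 19 (8.60%) WT-restricted. This K20R-restricted share was near that of all regions. That of the paralogues contains the 3 regions of Padi4, so nothing is read from it. Within the receptor tyrosine kinase list the regions were spread over the genes. The 8 genes, among them the ligands Fgf4 and Fgf8, the receptor Fgfr4 and the kinase Braf, had 1 such region each.

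Promoter peaks of marker genes were listed beside the labelled tissue. All of 6 early mesoderm genes, T, Eomes, Mixl1, Mesp1, Lhx1 and Tbx6, had one in every library, as did all of 4 pluripotency genes. Of 6 fibroblast genes, 4 had one in every library and 2 had none, and the part of feeder cells was not tested. Since genes of all these groups had promoter peaks, their presence cannot tell embryoid bodies from feeder cells or undifferentiated cells. None of 3 liver genes had any, and of 3 blood genes only Cd3e had one, in both K20R libraries (20.4 and 5.64).

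The count depends on weak peaks. With only peaks of a −log10 q of at least 5, 10 of 71 regions were K20R-restricted (14.1%, all regions 3.08%). In the same setting 5 were WT-restricted (7.04%, all regions 9.32%). Ncoa3 and Spry1 kept no K20R-restricted region. Counting a region as absent from WT only where no peak number was missing left 9 (8.41%, all regions 0.738%).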

How the data were processed

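ATAC-seq peak lists of 4 libraries, 2 WT and 2 CTCF-K20R, were analysed. Per the study's methods, the authors trimmed reads with Trim_Galore, aligned them to mm10 with bowtie2, removed poorly mapped, duplicate and blacklisted reads, and called peaks with MACS2. For every peak, the deposited lists of the authors hold a score (the −log10 p times 10), the ratio of summit pileup to local background as a fold, and the −log10 of the p and of the q. Lists held 51.7%, 50.5%, 58.6% and 60.8% of their peak numbers, and the rule of removal is not stated. Lists ranged from 51823 to 66703 peaks, and read depth is unknown. The 1% quantile of the local background recovered at the listed peaks was 2.76 and 2.71 in WT against 3.19 and 3.01 in K20R.

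Peaks were merged by 1 bp, annotated with GENCODE vM21 and ranked by −log10 p within each list. TSSs are the 5′ ends of gene records. Summit pileups were recovered from fold and p. Python 3.11.15 and pandas 2.3.3 were used, and the scripts were tested on simulated data.

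The loci and gene lists were chosen with earlier results of these data known. The rule for naming gave the 10 genes, their strongest restricted regions, neighbouring genes and genes with high counts that were not selected, and all other regions were named after their values were seen. Lists were paralogues (Spry3 was not found), receptor tyrosine kinase, early mesoderm, pluripotency, fibroblast, blood and liver genes. No test was run: the loci were chosen on the same contrast, and with 2 against 2 libraries an exact permutation test cannot go below p = 0.333. Alternatives left out libraries or changed peak strength, list length, distance, merging, TSSs or the handling of missing numbers.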

Additional observations from a re-analysis of the deposited data

How the results depend on the processing

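The 30 K20R-restricted regions, their share of 28.0%, the 2 WT-restricted regions and the median percentile of 23.0 were recomputed under 11 alternatives each. Leaving out 1 library in turn gave 30 to 37 K20R-restricted regions, shares of 29.4% to 36.3%, 5 to 7 WT-restricted regions and medians of 20.1 (without K20R replicate 1) to 23.0, where 4.45% to 7.99% of all regions were K20R-restricted and 12.6% to 20.7% WT-restricted. A −log10 q of at least 5 gave 10 regions, 14.1%, 5 WT-restricted regions (7.04%, all regions 9.32%) and a median of 42.4, since weak peaks were dropped. The 51823 strongest peaks of every list gave 31 K20R-restricted regions (31.3%, all regions 6.29%) and a median of 24.9. In that setting 3 regions were WT-restricted (3.03%, all regions 8.04%). The K20R-restricted share of all regions thus depended on the lengths of the lists. Within 25 kb there were 18 K20R-restricted regions and 1 WT-restricted region, and within 100 kb a share of 18.5% and 4 WT-restricted regions, since fewer or more regions were included. Requiring unbroken peak numbers in the WT lists gave 9 regions, 8.41% and a median of 18.5. The cause of the other shifts was not tested. Without Gab1, chosen after seeing the data, there was 1 WT-restricted region, which is the one other than that of Gab1. Of 110 counts for single genes, 87 were within 1.5 times of those reported and 23 were not. With a library left out every gene had 3 to 6. Leaving out a library loosens both definitions, since fewer lists must hold or lack a peak. Neither the K20R-restricted nor the WT-restricted counts could therefore fall in those settings. No paired analysis was possible because the results come from no test, and the sources do not say that equal replicate numbers belong together. Precision is limited by 2 libraries per genotype, by unknown read depth and by the removed peaks.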
